A study of Mus musculus with 12 samples.

Results

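The nuclear genes for the subunits of the mitochondrial respiratory chain and of ATP synthase were followed through RNA-seq of mouse splenic B cells that lacked both hnRNP A1 and hnRNP A2B1. Members were picked by a rule on gene symbols, and the rule was set with earlier results of these data known. It took the Ndufa, Ndufb, Ndufc, Ndufs and Ndufv genes of complex I with Ndufab1. It also took the Sdh genes of complex II, the Uqcr genes and Cyc1 of complex III, and the Cox4 to Cox8 genes of complex IV. Cycs for cytochrome c and the Atp5 genes of ATP synthase completed the rule. Symbols containing -ps, which mark pseudogenes, were left out, and this dropped 10 symbols. Cox6c2, a processed pseudogene by GENCODE M21, has no such mark and was kept under complex IV. The rule found 89 gene identifiers with 88 symbols among the 59762 identifiers in 3 deposited tables. They divide into 38 for complex I, 4 for complex II, 9 for complex III, 19 for complex IV, 18 for ATP synthase and 1 for cytochrome c.

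Complexes I to IV pass electrons from NADH and succinate to oxygen, and complexes I, III and IV pump protons across the inner mitochondrial membrane while they do so. Cytochrome c carries electrons between complexes III and IV, and ATP synthase lets the protons flow back through a rotor and makes ATP. A few subunits of these complexes are encoded in mitochondrial DNA, and the others, described here, in the nucleus. Resting B cells are small and quiescent, and B cells activated through the antigen receptor enlarge, divide and raise their respiration.

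The libraries came from splenic B cells of mice in which a Cre-loxP system had removed both genes (double knockout, DKO) and of wild-type (WT) mice, enriched by negative selection with beads against CD43. The study asked what both proteins do in the germinal centre response of B cells. Stimulated cells came from 48 h of culture with anti-CD40 at 1 µg/mL and with anti-IgM at 10 µg/mL, which mimic signals of helper T cells and of antigen. They formed 2 DKO and 2 WT libraries. Untreated cells were lysed without culture and formed 3 DKO and 3 WT libraries, and 2 additional libraries of untreated WT cells stood in a table of their own. The labels name neither the Cre driver nor the age, sex or strain of the mice, nor whether replicates were separate animals, so p-values measure the spread between these libraries only. Of the stimulated WT libraries 1 carries no usable number and is called unnumbered.

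The libraries held 15090953 to 21731893 counts each. Hnrnpa1 stood at 10.6% to 27.4% and Hnrnpa2b1 at 17.4% to 32.3% of the mean of the matching WT libraries in the 5 DKO libraries. Levels are given in CPM, counts scaled to library size with TMM factors, unless stated otherwise. Levels of cell type markers and Xist, here and below, and the percentages of Hnrnpa1 and Hnrnpa2b1 use plain library totals instead. The 6 B cell markers summed to 2650 to 3092 CPM in untreated DKO and 3315 to 3824 CPM in untreated WT libraries, and to 4143 to 4553 CPM in stimulated DKO and 5711 to 6183 CPM in stimulated WT libraries. The defining genes of T cells summed to 1.14 to 4.15 CPM over these 10 libraries, and those of macrophages to 37.1 to 76.6 CPM. In the additional WT libraries the macrophage genes summed to 193 and 242 CPM and the dendritic cell genes to 90.2 and 106 CPM. Adgre1 made up most of that macrophage sum, with a mean of 196 CPM, while Lyz2 had 3.55 CPM. The 4 markers of stroma and endothelium, nearly all of them Pecam1, were lower in DKO cells, at 24.2 to 33.3 CPM in untreated DKO, against 53.9 to 74.8 CPM in untreated WT libraries, and at 47.9 to 54.6 CPM in stimulated DKO, against 109 to 122 CPM in stimulated WT libraries. In stimulated cells the dendritic cell genes summed to 56.2 and 56.7 CPM in DKO, against 32.2 and 41.5 CPM in WT libraries. Flt3 and Zbtb46 made up nearly all of these sums, while Siglech and Itgax, at means of 0.501 CPM or less, were slightly lower in DKO. The plasma cell genes summed to 475 and 541 CPM in stimulated DKO, against 417 and 453 CPM in stimulated WT libraries. Most of this was Irf4, at means of 455 CPM in DKO and 397 CPM in WT cells, while Sdc1 had 9.50 and 9.81 CPM. In untreated cells the macrophage genes summed to 37.1 to 64.3 CPM in DKO, against 65.6 to 71.2 CPM in WT libraries. Adgre1 held most of that difference, at means of 18.1 CPM in DKO and 41.4 CPM in WT cells. Lyz2, at 20.1 and 14.5 CPM, and Cd14, at 1.38 and 0.649 CPM, went the other way. The part of these marker differences in the results was not tested. Untreated DKO library 1 and untreated WT library 2 expressed Xist at 2004 and 2117 CPM, and the other libraries at 6.83 CPM or less.

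Of the 89 members, 82 passed the filter on low counts in untreated cells, 82 in stimulated cells and 84 when both conditions were fitted together. Per length, both main subunits of the ATP synthase head came first. With CPM divided by the exonic length in kilobases from the deposited tables, Atp5a1, the alpha subunit, reached 362 ± 7.98 in untreated DKO cells and 315 ± 8.77 in untreated WT cells (mean ± SD, n = 3 each). Atp5b, the beta subunit with the catalytic sites, reached 341 ± 13.1 in untreated DKO and 284 ± 11.3 in untreated WT cells. In WT cells Cox8a and Cox6a1 of complex IV stood next, at 209 ± 35.4 and 191 ± 12.4, and did not differ beyond their spread. In DKO cells Uqcr10 of complex III and Cox6b1 of complex IV held those places, at 251 ± 21.9 and 246 ± 17.5, and overlapped as well. With the length of the principal GENCODE M21 transcript in place of the exonic length, Atp5b came first and Atp5a1 next, at 755 and 460 in DKO and 629 and 399 in WT cells.

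At the other end, Cox7b2, Cox8b, Cox8c and a second identifier of Atp5o had no count in any of the 10 libraries other than the additional ones. Cox7b2 and Cox8c are known as testis isoforms and Cox8b as the isoform of heart and skeletal muscle. The testis isoform Cox6b2, the muscle isoform Cox7a1 and the hypoxia-linked lung isoform Cox4i2 were near the limit of detection in WT cells. Their levels in untreated cells were 1.57 ± 0.374 CPM in DKO and 0.697 ± 0.104 CPM in WT for Cox6b2, 0.217 ± 0.138 and 0.251 ± 0.353 CPM for Cox7a1, and 0.686 ± 0.323 and 0.0367 ± 0.0321 CPM for Cox4i2 (mean ± SD, n = 3 each). The additional WT libraries held more Cox6b2, at 2.72 and 2.52 CPM by plain totals. They also held 92 and 41 reads of Cox7a1, against 13, 0 and 2 in the other untreated WT libraries. The muscle isoform Cox6a2 was an exception and is described below with its partner Cox6a1.

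In untreated cells the members stood mostly higher in DKO than in WT cells, with small differences. Of 82 tested members 27 rose and 2 fell in DKO cells, while 8.81% of all 13561 tested genes rose and 10.6% fell (edgeR's quasi-likelihood test, Benjamini-Hochberg adjusted p under 0.05). Log2 fold changes were positive for 73 of the 82 members, with a median of 0.22, against a median of -0.01 over all tested genes. All 3 DKO libraries lay above all 3 WT libraries for 50 members and below for 3, and the same held for 20.2% and 19.3% of all tested genes. Whether a cell held more of these transcripts or cells rich in them were more frequent cannot be told apart in bulk RNA. With plain library totals 16 members rose, where 782 of all genes rose and 1970 fell, against 1195 and 1443 with TMM factors. The count of risen members was 8 without WT library 3, 13 without DKO library 2 and 17 without DKO library 3, where 2.63%, 5.79% and 3.65% of all tested genes rose.

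Summed over all members, the level was 10850, 11361 and 10603 CPM in the untreated DKO libraries, against 9751, 9204 and 9144 CPM in the untreated WT libraries. Complex III, complex IV and ATP synthase had ratios of the group means of 1.204, 1.195 and 1.19, complex I of 1.12 and complex II of 1.06. As a share of plain library totals the members took 1.03% to 1.12% in untreated DKO libraries, 0.945% to 1.01% in untreated WT libraries, and 0.695% and 0.755% in the additional WT libraries. With them counted as WT, 5 members rose and 0 fell, in a comparison where 89 genes in all rose and 230 fell, while the median of the members was 0.33. Of the 27 risen members, 24 stood higher in every DKO library than in both additional WT libraries in CPM of plain totals, as did 749 of all 1195 genes that rose (62.7%). Among all tested, whether called or not, the same held for 62 of 82 members (75.6%) and for 36.1% of 13561 genes. The risen members that did not were Ndufb5, Ndufb1 and Cox6b2.

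**Figure D1:**
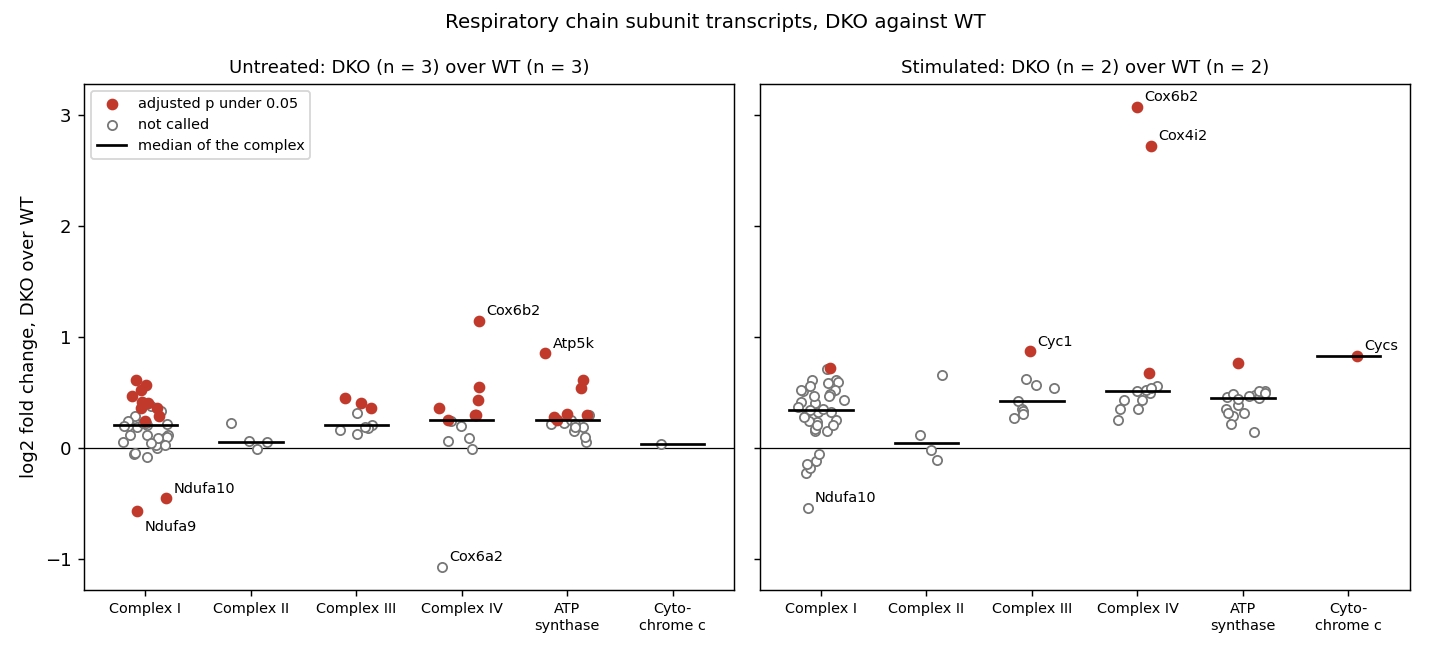
Log2 fold change of each tested member, DKO over WT, by complex (x axis), in untreated cells (left panel, n = 3 each) and stimulated cells (right panel, n = 2 each), with filled points at an adjusted p under 0.05 and bars at the median of each complex. Most points lie above 0 in both panels, and 27 members on the left and 7 on the right are called higher.

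Among the 38 subunits of complex I, 10 rose and 2 fell in untreated DKO cells, with a median log2 fold change of 0.21. The risen members were accessory subunits, which surround the catalytic core, and Ndufa4, which carries a complex I name but is known as a subunit of complex IV. Ndufb1, a small subunit of the membrane arm, measured 59.1, 69.99 and 54.7 CPM in the DKO libraries, against 35.9, 47.6 and 35.8 CPM in the WT libraries. Its log2 fold change was 0.61 ± 0.14 (adjusted p = 0.0156). The groups did not overlap, though WT library 2 came close to the lowest DKO library. The additional WT libraries held Ndufb1 at 80.3 and 82.9 CPM by plain totals, above the 53.4 to 68.7 CPM of the DKO libraries on that scale. Ndufa1, an X-linked subunit needed to build the membrane arm, measured 36.6, 49.1 and 37.6 CPM in the DKO libraries, against 24.3, 33.4 and 24.8 CPM in the WT libraries, a change of 0.57 ± 0.16 (adjusted p = 0.0345). Ndufb2 and Ndufb3, also of the membrane arm, rose by 0.52 ± 0.09 and 0.47 ± 0.08 (adjusted p = 0.00588 and 0.00767). For Ndufb3 the values were 71.7, 71.9 and 65.7 CPM in the DKO libraries, against 53.2, 50.5 and 46.1 CPM in the WT libraries. The call of Ndufa1 was lost without WT library 1, WT library 3, DKO library 2 or DKO library 3 (adjusted p up to 0.133). Those of Ndufb1 and Ndufb3 were lost without WT library 3 (adjusted p = 0.0757 and 0.051).

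The members that fell were both of complex I. Ndufa9, an accessory subunit near the quinone site, measured 67.8, 79.3 and 62.9 CPM in the DKO libraries, against 111, 95.4 and 102 CPM in the WT libraries. Every DKO library lay below every WT library, and the change was -0.57 ± 0.11 (adjusted p = 0.00896). Ndufa10, an accessory subunit of the membrane arm, measured 89.2, 90.9 and 87.4 CPM in the DKO libraries, against 127, 118 and 117 CPM in the WT libraries, a change of -0.45 ± 0.07 (adjusted p = 0.00494). The DKO libraries were tight and well below the WT libraries. In the additional WT libraries, divided by their plain totals, Ndufa9 stood at 82.9 and 87.7 CPM, above the 61.4 to 77.9 CPM of the DKO libraries on the same scale. Ndufa10 stood there at 72.7 and 83.8 CPM, below the 85.3 to 89.3 CPM of the DKO libraries, and with these libraries counted as WT its log2 fold change was -0.22 (adjusted p = 0.526).

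**Figure D2:**
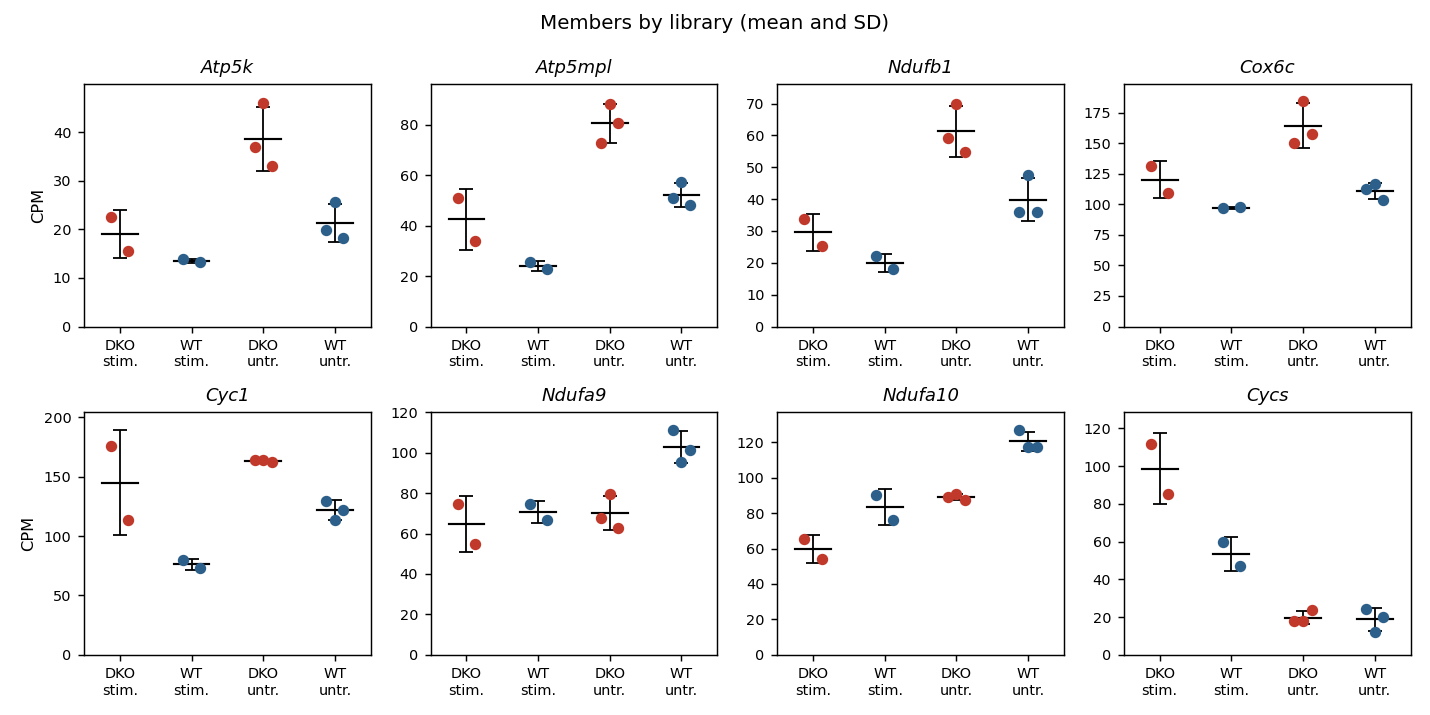
CPM of 8 members in 10 libraries (points), with the mean and SD of each group (bars), for stimulated and untreated DKO (red) and WT (blue) cells. Atp5k, Atp5mpl, Ndufb1, Cox6c and Cyc1 lie higher in untreated DKO than in untreated WT libraries and Ndufa9 and Ndufa10 lower. Cycs lies higher in stimulated than in untreated libraries. The additional WT libraries are not drawn.

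Complex II, which oxidises succinate and also belongs to the citric acid cycle, had a median log2 fold change of 0.06, the smallest of the complexes. None of its 4 subunits was called in untreated cells. Sdhb, the iron-sulphur subunit, had a log2 fold change of 0.23 ± 0.09 (adjusted p = 0.0954), and Sdha, the flavoprotein, had 0.06 ± 0.08. In complex III, 3 of 9 members rose and all 9 had positive log2 fold changes. Uqcr10, a small subunit of the membrane part, measured 147, 159 and 133 CPM in the DKO libraries, against 109.6, 108 and 101 CPM in the WT libraries, a change of 0.45 ± 0.08 (adjusted p = 0.00897). Cyc1, the cytochrome c1 that hands electrons to cytochrome c, measured 164, 164 and 162 CPM in the DKO libraries, against 129.9, 114 and 122 CPM in the WT libraries. It rose by 0.41 ± 0.07 (adjusted p = 0.00751), and its DKO libraries differed by less than 2 CPM while all lay above the WT libraries. Uqcrh, the hinge protein at the cytochrome c docking site, rose by 0.36 ± 0.09 (adjusted p = 0.0263), a call lost without WT library 2, WT library 3, DKO library 2 or DKO library 3 (adjusted p up to 0.0963). That of Uqcr10 was lost without WT library 3 (adjusted p = 0.0505). The core proteins Uqcrc1 and Uqcrc2 and the Rieske protein Uqcrfs1 had log2 fold changes of 0.13, 0.18 and 0.17 and were not called.

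Of the 13 tested subunits of complex IV, cytochrome c oxidase, 7 rose in untreated DKO cells. Cox6c measured 149.95, 185 and 158 CPM in the DKO libraries, against 113, 117 and 104 CPM in the WT libraries, a change of 0.55 ± 0.10 (adjusted p = 0.0067). Its exons overlap Vps13b on the opposite strand, which stood at 103 CPM in DKO and 146 CPM in WT cells by plain totals. Cox6b1, on the side facing cytochrome c, rose by 0.43 ± 0.08 (adjusted p = 0.00763), and its values were 170.3, 188 and 164 CPM in the DKO libraries, against 133, 128 and 124 CPM in the WT libraries. Cox7b rose by 0.36 ± 0.07 (adjusted p = 0.0105), a call lost without WT library 3 (adjusted p = 0.057), while Cox4i1, Cox5a and Cox5b rose by 0.30, 0.25 and 0.30. The call of Cox5a was lost when any 1 of the 6 libraries was left out, with adjusted p up to 0.143. Cox6b2 rose by 1.15 ± 0.34 (adjusted p = 0.0441) on 18, 30 and 25 reads in the DKO libraries, against 16, 10 and 14 reads in the WT libraries, and the additional WT libraries held 41 and 41 reads. Its call was kept without DKO library 1 and lost without any other library (adjusted p up to 0.139).

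Among the 17 tested ATP synthase genes, 7 rose and 0 fell, and all 17 log2 fold changes were positive. Atp5k, subunit e of the membrane part at which the enzyme dimerises, measured 36.9, 45.96 and 32.98 CPM in the DKO libraries, against 19.9, 25.6 and 18.3 CPM in the WT libraries. Its change of 0.85 ± 0.16 (adjusted p = 0.00897) was the largest rise of the members with over 10 CPM, and the DKO libraries lay well clear of the WT libraries. Atp5mpl, a small proteolipid attached to the membrane part, measured 72.8, 88.3 and 80.9 CPM in the DKO libraries, against 50.9, 57.3 and 48.3 CPM in the WT libraries, a change of 0.62 ± 0.10 (adjusted p = 0.00541). Atp5e, the epsilon subunit of the central stalk, measured 163, 183 and 162 CPM in the DKO libraries, against 122, 114 and 112 CPM in the WT libraries. It rose by 0.54 ± 0.08 (adjusted p = 0.00385), with all DKO libraries above all WT libraries. Atp5g3, which encodes the c subunit of the rotor ring, rose by 0.31 ± 0.09 (adjusted p = 0.0405), a call lost without WT library 2, WT library 3, DKO library 2 or DKO library 3 (adjusted p up to 0.159). The catalytic Atp5b and the gamma subunit Atp5c1 rose by 0.25 and 0.28, and Cycs stood at 19.7 ± 3.38 CPM in DKO and 18.9 ± 6.16 CPM in WT cells, with no call.

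**Figure D3:**
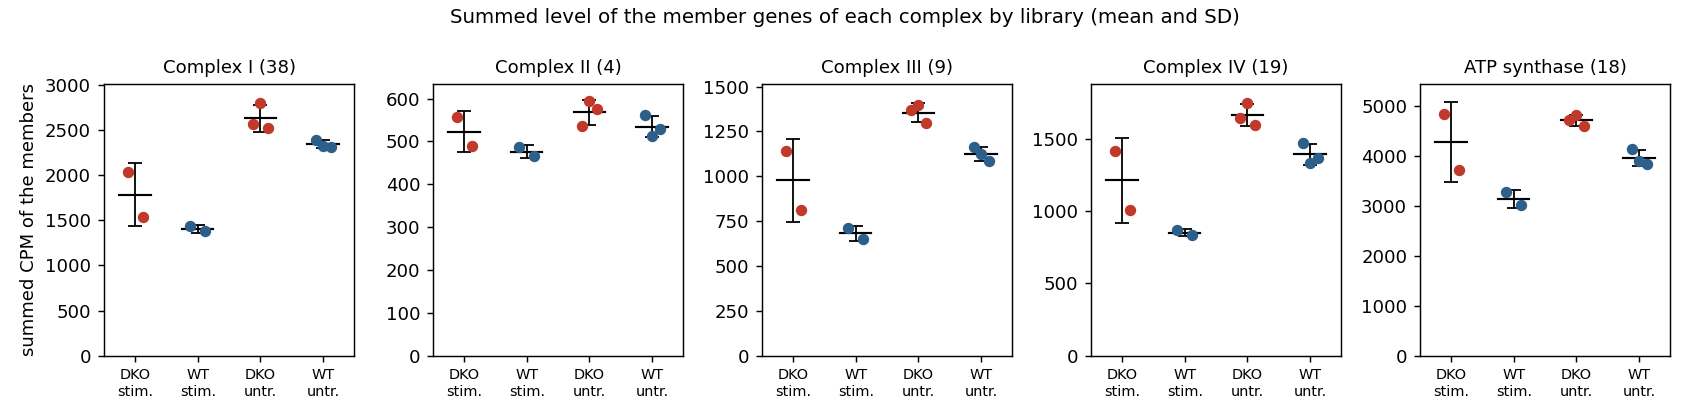
CPM summed over the member genes of each complex (number of members in brackets) in 10 libraries (points), with mean and SD per group (bars), for stimulated and untreated DKO (red) and WT (blue) cells. Untreated DKO libraries lie above untreated WT libraries except in complex II, and stimulated DKO library 1 lies above DKO library 2 in every panel.

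Other genes of the same pathway moved in the same direction in part. Of 55 tested assembly factors 13 rose and 1 fell in untreated DKO cells, with a median log2 fold change of 0.15. Of all 13561 tested genes 8.81% rose and 10.6% fell. Of complex III factors, Uqcc1 and Uqcc2 rose by 0.36 and 0.43. Bcs1l, which inserts the Rieske protein into complex III, rose by 0.69 ± 0.10 (adjusted p = 0.00364). Cox15, which makes haem A for complex IV, changed by -0.64 ± 0.08 (adjusted p = 0.00295), while Cox14 rose by 0.55 ± 0.08 (adjusted p = 0.00414) and the copper chaperone Cox17 by 0.35. Ecsit of complex I assembly rose by 0.31, and Ndufaf4 and Ndufaf5 rose by 0.36 ± 0.08 and 0.60 ± 0.13 (adjusted p = 0.0131 and 0.0166). Of 13 protein genes of the mitochondrial genome 3 rose, with a median of 0.33. They were mt-Nd1, mt-Co1 and mt-Atp6, with changes of 0.31 ± 0.07, 0.33 ± 0.08 and 1.01 ± 0.26 (adjusted p = 0.014, 0.0205 and 0.0282). Of 15 regulators of respiratory gene expression, Twnk alone was called (0.51 ± 0.07, adjusted p = 0.00346). Twnk encodes the helicase of mitochondrial DNA.

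In untreated DKO cells 9 of 23 genes of the outer membrane and import machinery rose (median 0.22), led by the import subunits Tomm7 and Tomm20 and the chaperonin partner Hspe1 at 0.62 ± 0.09, 0.61 ± 0.10 and 0.52 ± 0.08 (adjusted p = 0.00385, 0.00498 and 0.0039). Of 78 mitochondrial ribosomal proteins 22 rose and 3 fell (median 0.17). Mrpl3 changed by -0.80 ± 0.12 (adjusted p = 0.00375), while Mrps16 and Mrpl39 rose by 0.47 ± 0.09 and 0.37 ± 0.07 (adjusted p = 0.00907 and 0.00911). Of 81 cytosolic ribosomal proteins 62 rose and 0 fell (median 0.46). Rplp2, Rps21 and Rpl37a had the smallest p among them and rose by 0.65 ± 0.07, 0.69 ± 0.08 and 0.65 ± 0.07 (adjusted p = 0.00174, 0.00174 and 0.00174).

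The members are short transcripts, and transcript length moved with the change. Principal GENCODE M21 transcripts had a median length of 863 bases among tested members and 2673 bases among all tested genes. Across the 82 members, Spearman's rho between length and log2 fold change was -0.33 in untreated cells, and across 13521 genes it was -0.12, where all genes share the same libraries. The 37 members under 800 bases had a median log2 fold change of 0.25 and 16 of them rose. Other genes of that length numbered 1279, with a median of 0.19, and 14.9% of them rose. The 21 members of 1500 bases or more had a median of 0.19 and 5 of them rose, against a median of -0.03 and 7.54% for the 10296 other genes of that length. The part of length in the difference between DKO and WT cells was not tested.

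In stimulated cells the members again stood mostly higher in DKO than in WT cells. Of 82 tested members 7 rose and 0 fell in DKO cells, against 5.09% of all 14430 tested genes that rose and 6.17% that fell. Log2 fold changes were positive for 74 members, with a median of 0.43 against -0.03 over all tested genes. Both DKO libraries lay above both WT libraries for 66 members and below for 1, where the same held for 31.4% and 29.1% of all tested genes. With plain library totals 3 members rose and 1 fell, where 442 of all genes rose and 1002 fell, against 734 and 891 with TMM factors, and the median of all genes was -0.13.

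The stimulated DKO libraries differed from each other. Library 1 had higher CPM than library 2 for 81 of 82 members, with a median log2 ratio of 0.45, against 0.10 over all tested genes. Set against the mean of the WT libraries, the median log2 ratio of the members was 0.68 in DKO library 1 and 0.19 in DKO library 2. Summed CPM over all members was 10099 and 7634 in the DKO libraries, against 6823 and 6387 in the WT libraries. The number of risen members was 66 without DKO library 2, where 19.8% of all tested genes rose, and 15 without DKO library 1, where 10.8% rose. It was 1 without WT library 1 and 1 without the unnumbered WT library, where 288 and 243 of all tested genes rose.

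Cyc1 measured 176 and 114 CPM in the DKO libraries, against 79.7 and 73.03 CPM in the WT libraries, a log2 fold change of 0.87 ± 0.21 (adjusted p = 0.0333). Cycs, which carries electrons and triggers apoptosis when it leaves mitochondria, measured 112 and 85.5 CPM in the DKO libraries, against 59.97 and 47.1 CPM in the WT libraries, and rose by 0.83 ± 0.19 (adjusted p = 0.0287). Both DKO libraries lay above both WT libraries for each. Ndufa5, an accessory subunit of the matrix arm of complex I, measured 20.6 and 17.2 CPM in the DKO libraries, against 11.2 and 11.1 CPM in the WT libraries, a change of 0.72 ± 0.19 (adjusted p = 0.0422). Its DKO libraries were close together and clear of the WT libraries. Cox5a, which lies on the matrix side of complex IV, and Atp5mpl rose by 0.68 ± 0.18 and 0.76 ± 0.20 (adjusted p = 0.0446 and 0.0443). For Atp5mpl the values were 51.1 and 33.99 CPM in the DKO libraries, against 25.6 and 22.8 CPM in the WT libraries. Each of these 5 calls was lost without WT library 1 and without the unnumbered WT library, with adjusted p up to 0.263 for Cyc1, 0.388 for Cycs, 0.320 for Ndufa5, 0.483 for Cox5a and 0.338 for Atp5mpl.

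The largest changes in stimulated DKO cells fell on isoforms that were scarce in the stimulated WT libraries. Of these, Cox6b2 stood at 2.72 and 2.52 CPM by plain totals in the additional untreated WT libraries. Cox6b2 measured 8.60 and 2.55 CPM in the DKO libraries, against 0.666 and 0.593 CPM in the WT libraries, a log2 fold change of 3.07 ± 0.58 (adjusted p = 0.0148), and the DKO libraries held 167 and 42 reads, against 13 and 11 reads in the WT libraries. Cox4i2 had 38 and 28 reads in the DKO libraries, against 5 and 5 in the WT libraries, a change of 2.72 ± 0.52 (adjusted p = 0.0159). That call was lost without either WT library (adjusted p up to 0.0605), and that of Cox6b2 held without any 1 of the 4 libraries. In untreated cells Cox4i2 had 15, 12 and 5 reads in the DKO libraries, against 1, 1 and 0 in the WT libraries, and failed the filter. The ratio of its summed scaled reads there was 19.7, with a 95% interval from 5.01 to 169 that covers counting error only. The common isoforms stayed higher per length. Cox4i1 reached 162 ± 44.4 CPM per kilobase in stimulated DKO and 111 ± 4.76 in stimulated WT cells, where Cox4i2 had 2.32 ± 0.231 and 0.334 ± 0.012 (mean ± SD, n = 2 each). Cox6b1 reached 162 ± 46.8 and 109 ± 6.73 CPM per kilobase, where Cox6b2 had 5.03 ± 3.86 and 0.568 ± 0.0466.

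Ndufaf4 and Bcs1l were called in stimulated cells as well and rose by 0.98 ± 0.17 and 0.96 ± 0.20 (adjusted p = 0.0123 and 0.0211), with Ndufaf5 at 0.90 ± 0.21 (adjusted p = 0.0302). Cox15 changed by -0.70 ± 0.16 (adjusted p = 0.0302). Of 55 assembly factors 3 rose and 1 fell, where 5.09% of all 14430 tested genes rose and 6.17% fell. The share of assembly factors that rose was thus near that of all genes. Of 13 mitochondrial genome genes 0 were called, with a median of 0.45. Myc, a transcription factor that drives growth and mitochondrial genes, was the one called regulator and rose by 1.08 ± 0.19 (adjusted p = 0.0122). Of 23 import genes 8 rose (median 0.61), among them Hspe1, Tomm5 and Timm9 at 0.90 ± 0.20, 0.87 ± 0.20 and 0.67 ± 0.16 (adjusted p = 0.0243, 0.0283 and 0.0349). Of 78 mitochondrial ribosomal proteins 8 rose and 1 fell (median 0.39). Mrpl20 and Mrpl30 rose by 0.83 ± 0.17 and 0.81 ± 0.18 (adjusted p = 0.0206 and 0.0269), and Mrpl3 changed by -0.73 ± 0.16 (adjusted p = 0.0245). Of 81 cytosolic ribosomal proteins 34 rose (median 0.75), with Rps21, Rps27 and Rps27l at 1.09 ± 0.21, 1.04 ± 0.21 and 0.90 ± 0.18 (adjusted p = 0.0151, 0.0186 and 0.0186).

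The comparisons of DKO with WT cells in the untreated and the stimulated state share no library, and 5 members were called in both. These were Ndufa5, Cyc1, Cox5a, Cox6b2 and Atp5mpl, each higher in DKO cells. Of 13068 genes tested in both states 6.84% were called in both and 2.76% were higher in both, and of 81 such members 6.17% were, all higher. The shared members make up 5 of the 29 members called in untreated cells and 5 of the 7 called in stimulated cells. Ndufa10 had nearly the same log2 fold change in stimulated cells, -0.53 ± 0.17 (adjusted p = 0.0764), as in untreated cells, while Ndufa9 had -0.18 ± 0.18 (adjusted p = 0.544). The difference between both genotype effects was tested in a single fit over 10 libraries, where 0.14% of 15006 genes were called. Ndufa5 lost its call in untreated cells without WT library 3, DKO library 2 or DKO library 3 (adjusted p up to 0.11). Of 84 members 0 were called in this interaction by edgeR and 0 by DESeq2. With edgeR 9 of the 84 had an unadjusted p under 0.05, as did 1802 of all 15006 genes. Without stimulated DKO library 2, 18 members were called, all higher, where 4.28% of 15804 genes were called higher and 3.59% lower. The median interaction was 0.22, and it was -0.04 without stimulated DKO library 1 and 0.44 without stimulated DKO library 2.

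Most members had lower levels in stimulated than in untreated cells of both genotypes. In DKO cells 49 of 84 members fell and 8 rose after stimulation, while 16.8% of all 15006 tested genes fell and 16.2% rose (33.0% either way). In WT cells 62 members fell and 6 rose, against 22.8% and 17.8% of all genes (40.6% either way). Log2 fold changes had a median of -0.49 in DKO and -0.71 in WT cells, and 48 members fell in both genotypes. Summed over all members, the ratio of stimulated to untreated CPM came to 0.811 for DKO and 0.705 for WT cells. Stimulation, time in culture and the deposited table changed together here, so their effects cannot be told apart. CPM are shares of the RNA in a library and say nothing of the amount per cell. With the additional WT libraries counted as untreated WT, 35 members fell and 4 rose, where 8.97% of 15262 genes fell and 7.00% rose. As a share of plain library totals, the members took 0.691% and 0.674% in the stimulated WT libraries. The additional untreated WT libraries were near this, at 0.695% and 0.755%, while the other untreated WT libraries held 0.945% to 1.01%.

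Transcript length moved with the change after stimulation too. Spearman's rho between length and log2 fold change was 0.35 in DKO and 0.35 in WT cells across 84 members, and 0.11 in DKO and 0.16 in WT cells across 14939 genes, all from the same libraries. Of the 39 members under 800 bases, 30 fell in DKO and 31 in WT cells, against 26.1% in DKO and 29.4% in WT cells of the 1646 other genes of that length. Of the 21 members of 1500 bases or more, 8 fell in DKO and 12 in WT cells, against 13.8% in DKO and 19.7% in WT cells of the 11079 other genes of that length. Between DKO and WT in stimulated cells, rho was -0.26 across 82 members and -0.18 across 14136 genes. The part of length in these changes was not tested.

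**Figure D4:**
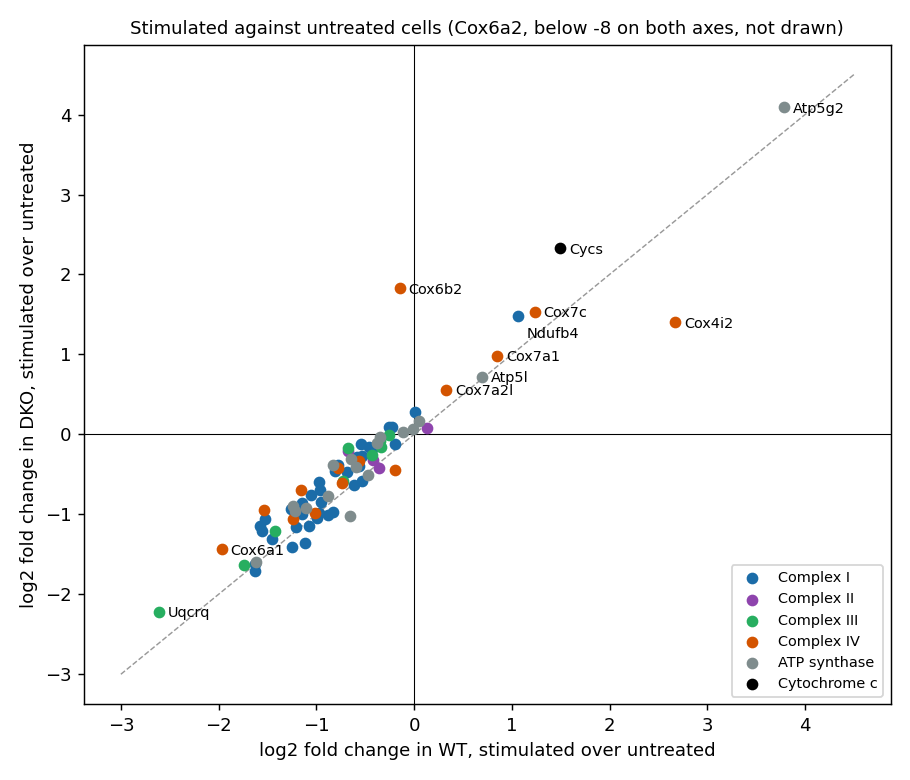
Log2 fold change of each member in stimulated over untreated cells, in WT (x axis) and DKO cells (y axis), coloured by complex, from the fit over 10 libraries, with a dashed line at equal change. Most members lie below 0 on both axes, and Atp5g2, Cycs, Cox7c, Ndufb4 and Atp5l lie above 0 on both.

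Complex I held most of the fall, with 27 of 38 members lower in DKO and 32 in WT cells. Ndufa2, an accessory subunit of the matrix arm, measured 24.8 and 16.2 CPM in stimulated DKO libraries, against 68.2, 70.2 and 63.7 CPM in untreated DKO libraries. In WT it measured 16.1 and 16.2 CPM in stimulated WT libraries, against 47.5, 51.7 and 50.9 CPM in untreated WT libraries. Its log2 fold changes were -1.71 ± 0.16 in DKO and -1.63 ± 0.16 in WT cells (adjusted p = 7.73e-06 and 1.02e-05), and no stimulated library came near an untreated one. Ndufs5 and Ndufa11, accessory subunits of the membrane arm, changed by -1.62 and -1.14 in DKO and -1.63 and -1.58 in WT cells. Ndufb4, another accessory subunit, was the one member of complex I that rose. It measured 21.01 and 15.4 CPM in stimulated DKO libraries, against 6.70, 6.43 and 6.46 CPM in untreated DKO libraries and changed by 1.48 ± 0.18 (adjusted p = 7.18e-05). In WT cells it measured 13.5 and 14.5 CPM in stimulated WT libraries, against 6.69, 5.73 and 7.67 CPM in untreated WT libraries and changed by 1.06 ± 0.18 (adjusted p = 0.000609).

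In complex II, 1 member fell in DKO and 3 in WT cells. Sdhb, Sdhc and Sdhd changed by -0.21, -0.42 and -0.32 in DKO and by -0.68, -0.36 and -0.42 in WT cells, of which Sdhc was called in DKO cells and each in WT cells. Leaving single libraries out of the joint fit ended the call of Sdhc for 3 of 10 libraries in DKO cells (adjusted p up to 0.126) and 7 of 10 in WT cells (up to 0.16), that of Sdhd for 4 of 10 and that of Sdhb without the unnumbered WT library. In complex III, Uqcrq, a small subunit at the quinone site, had the largest fall among members still expressed after stimulation. Its level was 54.2 and 31.9 CPM in stimulated DKO libraries, against 228, 200.2 and 175 CPM in untreated DKO libraries. For WT the level was 29.1 and 27.99 CPM in stimulated WT libraries, against 180.4, 175 and 169 CPM in untreated WT libraries. The log2 fold changes of Uqcrq were -2.22 ± 0.20 (adjusted p = 4.85e-06) in DKO and -2.61 ± 0.20 (adjusted p = 1.37e-06) in WT cells. Uqcr11 and Uqcr10, also small subunits, changed by -1.63 and -1.21 in DKO and -1.74 and -1.42 in WT cells, and all were called. The additional untreated WT libraries held Uqcr11 at 16.2 and 14.9 CPM by plain totals. On that scale its mean was 12.3 CPM in stimulated and 41.1 CPM in other untreated WT cells. Uqcrq stood at 68.2 and 77.8 CPM in the additional libraries, between its levels in stimulated and other untreated WT cells. The core proteins Uqcrc1 and Uqcrc2 had -0.08 and -0.16 in DKO cells and -0.35 and -0.34 in WT cells, of which Uqcrc2 in WT cells was called.

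Complex IV lost 9 and gained 4 called members in DKO cells, and lost 9 and gained 2 in WT cells. Cox8a fell, with log2 fold changes of -0.95 ± 0.19 in DKO and -1.54 ± 0.20 in WT cells (adjusted p = 0.00266 and 8.11e-05). Cox7c measured 84.5 and 63.4 CPM in stimulated DKO libraries, against 26.8, 26.5 and 23.4 CPM in untreated DKO libraries, a rise of 1.53 ± 0.13 (adjusted p = 4.74e-06). The WT values of Cox7c were 58.2 and 53.7 CPM in stimulated WT libraries, against 25.3, 23.4 and 22.6 CPM in untreated WT libraries, a change of 1.23 ± 0.13 (adjusted p = 2.26e-05). Cox7a2l, which ties complexes III and IV into supercomplexes, rose in DKO cells by 0.56 ± 0.15 (adjusted p = 0.0114), a call lost without stimulated DKO library 1 (adjusted p = 0.105), with 0.33 ± 0.15 (adjusted p = 0.0903) in WT cells. Cox6b2 rose in DKO cells by 1.83 ± 0.43 (adjusted p = 0.00641), a call lost without stimulated DKO library 1 (adjusted p = 0.218), and had -0.15 ± 0.56 (adjusted p = 0.854) in WT cells. Cox4i2 rose by 1.403 ± 0.49 in DKO and 2.67 ± 0.91 in WT cells (adjusted p = 0.0428 and 0.0336). The WT value rests on 10 summed reads in stimulated and 2 in untreated cells, and the calls were lost for 7 of 10 libraries left out in DKO cells and 4 of 10 in WT cells (adjusted p up to 0.151 and 0.115).

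The Cox6a isoforms, which complete complex IV on the outer face and differ between muscle and other tissues, behaved unlike each other. Cox6a2, the heart and muscle isoform, was well expressed in untreated cells, at 44.03, 17.9 and 13.5 CPM in the DKO libraries, against 51.3, 52.6 and 52.7 CPM in the WT libraries. The DKO libraries lay below the WT libraries and were far apart, and the log2 fold change of -1.07 ± 0.35 (adjusted p = 0.0632) did not pass the threshold. Without DKO library 1 it was -1.74 (adjusted p = 0.0012). With a term for sex, read from Xist and the Y-linked Ddx3y and chosen after seeing the data, it was -1.21 (adjusted p = 0.00247). The additional WT libraries held 881 and 946 reads, or 58.3 ± 0.181 CPM by plain totals. Stimulated cells had 2 and 0 reads in the DKO libraries and 0 and 1 read in the WT libraries. Scaled to depth, the summed reads of untreated cells exceeded those of stimulated cells 452-fold in DKO cells (95% interval 125 to 3740, counting error only) and 1985-fold in WT cells (356 to 78441). Siglech, a marker of plasmacytoid dendritic cells, lay between 0 and 1.053 CPM in all 12 libraries, and the 4 dendritic cell markers summed to 68.8 to 75.4 CPM in untreated DKO and 56.5 to 76.3 CPM in untreated WT libraries. The part of such cells in the Cox6a2 level was not tested.

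Cox6a1, the isoform of most tissues, measured 65.2 and 39.3 CPM in stimulated DKO libraries, against 152, 140.2 and 133 CPM in untreated DKO libraries. In WT cells Cox6a1 measured 37.8 and 30.7 CPM in stimulated WT libraries, against 143, 126 and 133 CPM in untreated WT libraries. It fell after stimulation, with log2 fold changes of -1.44 ± 0.18 (adjusted p = 9.61e-05) in DKO and -1.97 ± 0.19 (adjusted p = 8.88e-06) in WT cells. Between genotypes it differed little in untreated cells, 0.07 ± 0.08 (adjusted p = 0.598). Per length, untreated DKO cells held Cox6a1 at 202 ± 13.2 and Cox6a2 at 36.96 ± 24.3 CPM per kilobase, and untreated WT cells at 191 ± 12.4 and 76.8 ± 1.15 (mean ± SD, n = 3 each).

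ATP synthase had 8 members that fell and 2 that rose in DKO cells, and 11 and 2 in WT cells. Its c subunit, which forms the rotor ring, is encoded by Atp5g1, Atp5g2 and Atp5g3, whose mature proteins are the same. Atp5g2 measured 205 and 121 CPM in stimulated DKO libraries, against 8.83, 9.21 and 10.6 CPM in untreated DKO libraries. In WT cells it measured 113 and 112 CPM in stimulated WT libraries, against 7.90, 9.14 and 7.37 CPM in untreated WT libraries. These are log2 fold changes of 4.09 ± 0.20 (adjusted p = 1.67e-08) in DKO and 3.79 ± 0.19 (adjusted p = 3.42e-08) in WT cells, the largest rise among all members. Atp5g3 fell, with log2 fold changes of -0.41 ± 0.14 (adjusted p = 0.0365) in DKO and -0.59 ± 0.14 (adjusted p = 0.00446) in WT cells, and Atp5g1 had 0.17 ± 0.16 and 0.05 ± 0.16. Per length, Atp5g2 reached 97.2 ± 35.2 CPM per kilobase in stimulated DKO and 66.9 ± 0.432 in stimulated WT cells, where Atp5g3 had 87.9 ± 17.00 and 62.1 ± 4.02 and Atp5g1 9.37 ± 2.33 and 6.92 ± 0.969 (n = 2 each).

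**Figure D5:**
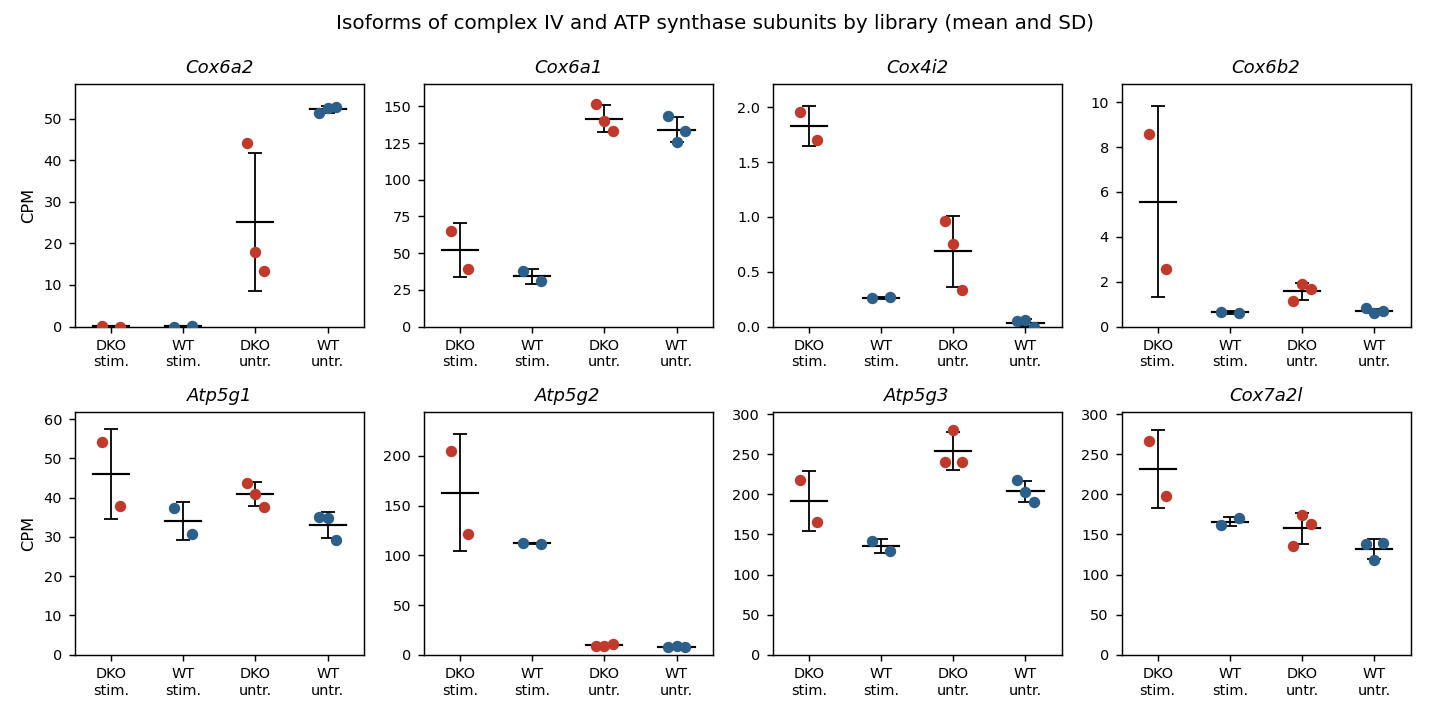
CPM of isoform genes of complex IV (Cox6a2, Cox6a1, Cox4i2, Cox6b2, Cox7a2l) and of the c subunit of ATP synthase (Atp5g1, Atp5g2, Atp5g3) in 10 libraries (points), with mean and SD per group (bars), for DKO (red) and WT (blue) cells. Cox6a2 is near 0 in all stimulated libraries, Atp5g2 is high in them, and Cox4i2 and Cox6b2 are highest in stimulated DKO libraries.

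Atp5e, Atp5d and Atp5md, which encode the epsilon and delta subunits of the central stalk and a small subunit of the membrane part, fell, with log2 fold changes of -1.598, -0.89 and -0.96 in DKO cells and -1.62, -1.24 and -1.21 in WT cells. Atp5l, subunit g of the membrane part, rose by 0.72 ± 0.11 in DKO and 0.69 ± 0.11 in WT cells (adjusted p = 0.000323 and 0.00036). Cycs measured 112 and 85.5 CPM in stimulated DKO libraries, against 17.8, 17.7 and 23.6 CPM in untreated DKO libraries, a change of 2.33 ± 0.24 (adjusted p = 1.54e-05). In WT cells Cycs measured 59.97 and 47.1 CPM in stimulated WT libraries, against 24.4, 12.2 and 20.1 CPM in untreated WT libraries, a change of 1.497 ± 0.24 (adjusted p = 0.000344). By plain totals the additional untreated WT libraries held Cycs at 42.7 and 44.5 CPM. Stimulated WT cells had a mean of 55.2 CPM and the other untreated WT cells of 19.7 CPM on that scale. For Atp5l the additional libraries held 62.5 and 68.6 CPM, and those means were 67.7 and 42.1 CPM. Means of Atp5g2, Cox7c and Ndufb4 were 6.58, 32.6 and 6.31 CPM in the additional libraries. In stimulated WT cells they were 116, 57.8 and 14.5 CPM. The catalytic Atp5a1 had 0.03 in DKO and -0.11 in WT cells and was not called.

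Genes of the mitochondrial genome went the other way. Their summed level was 50296 and 35816 CPM in stimulated DKO libraries, against 21251, 22534 and 22508 CPM in untreated DKO libraries. In WT it was 34195 and 28991 CPM in stimulated, against 18872, 19253 and 18534 CPM in untreated libraries. Of 13 such genes 9 rose and 0 fell in DKO cells and 8 rose and 0 fell in WT cells. Of all 15006 tested genes 16.2% rose and 16.8% fell in DKO cells, and 17.8% rose and 22.8% fell in WT cells. The 2 additional untreated WT libraries held 29660 and 31146 CPM by plain totals, within the range of the stimulated WT libraries. Of 55 assembly factors 23 fell and 1 rose in DKO and 36 fell and 0 rose in WT cells, and of 78 mitochondrial ribosomal proteins 41 fell and 1 rose in DKO and 65 fell and 1 rose in WT cells.

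Reads of 25 members can also match a near-identical copy elsewhere in the genome, mostly a processed pseudogene, by at least 95% identity over at least 70% of the coding sequence. The level of these copies differed between the tables of stimulated and untreated cells, so members with expressed copies are uncertain in that comparison. Values here are CPM by plain totals. The Atp5g1 copy Gm10039 stood at 10.4 CPM in stimulated WT and 100.2 CPM in untreated WT cells, and Atp5g1 itself at 35.1 and 34.2 CPM. Added to its copy, Atp5g1 had a log2 ratio of -1.56 in WT cells, not the 0.04 of Atp5g1 alone. For Cycs, whose copy Gm10053 stood at 3.82 and 17.1 CPM, the log2 ratio was 0.68 with copies and 1.49 without. Cox7c had 0.64 with copies and 1.23 without, and Atp5l 0.31 and 0.68. Atp5g2, whose copies held 2.101 and 2.13 CPM, had 3.48 and 3.78. With copies, Cycs had a mean of 57.3 CPM in the additional untreated WT libraries and 59.1 CPM in stimulated WT cells. Between genotypes in untreated cells, adding copies moved no log2 ratio of a called member by more than 0.1.

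Exons of 17 members overlap those of another gene with at least 10% of the member's level in some group, by GENCODE M21, all but 1 of them on the opposite strand. Among the members called in untreated cells these are Ndufa2, Ndufb1, Ndufb2, Ndufb5, Cox4i1, Cox6c and Atp5md. Neither labels nor notes state whether the counting used strand. Without it, reads of a member and its partner cannot be told apart. The partner of Ndufb1, Cpsf2, stood at 168 CPM in untreated DKO and 179 CPM in untreated WT cells, and that of Ndufb2, Braf, at 78.9 and 71.4 CPM.

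Promoter windows of 300 bases, running 250 bases before to 50 bases after the start in RefSeq (GRCm38.p6), were at hand for 71 of the 88 symbols, in 76 windows. Known regulators of respiratory genes include NRF1, which binds a palindrome of 10 letters, ETS factors such as GABP, which bind CCGGAAG, and YY1, which binds AAGATGGC near the start. Counted on both strands, CCGGAAG was present in 22.4% of member windows and 8.86% of all 32851 windows, AAGATGGC in 13.2% and 2.749%, and the NRF1 palindrome in 6.58% and 0.971%. TGCGCA, which overlaps the palindrome where an A follows it, was present in 19 of the 76 member windows and 7.76% of all windows, and 3 member windows held both. TATAAA was present in 11.8% and 13.6%. A match is a run of letters and not a site shown to be bound.

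The windows of 4 members named above are shown to set genes that moved in different directions beside each other, in lower case with these NRF1, ETS and YY1 letters in capitals on either strand. Atp5k rose in untreated DKO cells and its window is chr5:108434350-108434649 on the minus strand. Ndufa9 fell in untreated DKO cells and has chr6:126849095-126849394 on the minus strand. Atp5g2 rose most and Cox6a1 fell strongly after stimulation, and their windows are chr15:102670998-102671297 on the minus strand and chr5:115348909-115349208 on the minus strand.
Atp5k: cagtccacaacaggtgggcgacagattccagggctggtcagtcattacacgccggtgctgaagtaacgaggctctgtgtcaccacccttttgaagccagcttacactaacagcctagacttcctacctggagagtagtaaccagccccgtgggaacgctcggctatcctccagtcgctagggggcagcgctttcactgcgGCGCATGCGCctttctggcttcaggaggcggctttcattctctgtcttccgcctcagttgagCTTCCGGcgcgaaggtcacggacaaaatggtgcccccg
Ndufa9: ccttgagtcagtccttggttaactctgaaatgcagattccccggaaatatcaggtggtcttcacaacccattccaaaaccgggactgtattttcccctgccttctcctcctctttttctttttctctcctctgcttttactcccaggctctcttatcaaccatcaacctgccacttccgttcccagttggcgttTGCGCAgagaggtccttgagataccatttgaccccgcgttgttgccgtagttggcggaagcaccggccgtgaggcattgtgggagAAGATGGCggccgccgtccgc
Atp5g2: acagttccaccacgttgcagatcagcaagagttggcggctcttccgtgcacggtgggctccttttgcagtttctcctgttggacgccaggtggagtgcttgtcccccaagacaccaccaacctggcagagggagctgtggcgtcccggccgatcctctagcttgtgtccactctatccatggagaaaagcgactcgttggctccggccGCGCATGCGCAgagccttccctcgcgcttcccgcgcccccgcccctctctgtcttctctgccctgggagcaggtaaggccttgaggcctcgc
Cox6a1: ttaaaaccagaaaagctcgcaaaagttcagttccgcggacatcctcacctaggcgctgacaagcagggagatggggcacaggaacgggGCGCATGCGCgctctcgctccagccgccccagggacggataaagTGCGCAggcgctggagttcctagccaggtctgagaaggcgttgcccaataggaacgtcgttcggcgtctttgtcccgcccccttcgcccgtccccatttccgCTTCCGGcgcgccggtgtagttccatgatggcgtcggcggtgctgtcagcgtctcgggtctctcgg

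The NRF1 palindrome was present in the windows of Atp5k, Atp5g2 and Cox6a1, of which Atp5g2 rose after stimulation and Cox6a1 fell, and was not in that of Ndufa9. Of the 22 risen members of untreated DKO cells that have a window, 8 held at least 1 of the short NRF1, ETS and YY1 motifs, against 27 of the 44 tested members that were not called. TGCGCA was found for 2 of the 22 and 15 of the 44, and AAGATGGC for 0 of the 22 and 9 of the 44. CCGGAAG was found for 6 of the 22 and 11 of the 44. These are counts over few genes, given as a description.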

How the data were processed

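Poly(A) RNA of 12 libraries in 5 groups was sequenced. The deposited count values are raw reads per gene, made by the authors with FastQC 0.10.1, cutadapt 1.9.1, HISAT2 2.2.1, HTSeq 0.6.1 and the GRCm39 genome, per the submitters' processing notes, which name these tools without roles. Neither the strand setting nor the annotation release was stated there. The 12 FPKM columns were not used. The WT column of the stimulated table without a number was kept as a library of its group with no number.

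Counts were analysed in R 4.3.3 with edgeR 4.0.16 (TMM factors, quasi-likelihood test, filterByExpr at 10 counts, 15 in total). P-values were adjusted by Benjamini-Hochberg over every tested gene, called under 0.05, and the fit was tested on simulated data. The SE of a log2 fold change was its size divided by the root of the F statistic. DKO was compared with WT within the untreated and the stimulated table, and stimulated with untreated cells, and the interaction, in 1 fit over 10 libraries. DESeq2 1.42.0, other scalings, other filters, replicate numbers as a block and leaving out each library were alternatives. Copies were found with blastn 2.17.0.

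Members and gene lists were chosen with earlier results of these data known. Genes were named by a rule: per complex, up to 4 called members with the largest change per direction between genotypes and up to 3 after stimulation, members called in both states or against the majority, tissue isoforms, and the highest and lowest levels, and per list the 3 called genes with the smallest p. Members beyond these were added after their values were seen.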

Additional observations from a re-analysis of the deposited data

How the results depend on the processing

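In untreated cells the count of members higher in DKO than in WT was 16 with plain library totals and 14 in 1 fit over 10 libraries. It was 5 when the additional libraries joined the WT group and 42 with a term for sex (chosen after seeing the data). Of all tested genes 5.77%, 5.3%, 0.635% and 14.7% rose in these settings, in the same order. Members that fell numbered 0 with the additional WT libraries, where 1.64% of all tested genes fell. With the replicate block 11 members rose and 1 fell, where 2.41% of all tested genes rose and 3.38% fell. However, the labels do not state that same-numbered libraries are pairs. Their deviations from the group means had correlations of -0.35, -0.35 and 0.14. With 3 libraries per group these values cannot decide whether the numbers mark pairs. Leaving out 1 library gave 8 to 24 risen members, where 2.63% to 8.6% of all tested genes rose. In stimulated cells 3 rose and 1 fell with plain totals, 12 rose with DESeq2, 16 rose with no filter on low counts, 36 rose and 1 fell in the fit over 10 libraries, and leaving out 1 library gave 1 to 66 risen and 0 to 1 fallen. Of all tested genes 3.06% rose and 6.94% fell in stimulated cells with plain totals, and 12.8% rose and 10.0% fell in the fit over 10 libraries. With DESeq2 6.04% rose, and with no filter 5.25%. No block could be fitted in stimulated cells because 1 WT library has no number. The cause of these differences was not tested.

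After stimulation 35 members fell in WT cells with the additional libraries as WT, where 8.97% of all tested genes fell. Risen members numbered 5 to 8 in DKO cells when 1 library was left out. In the interaction 2 members were called with no filter and 0 to 18 without 1 library, and the median ran from -0.044 to 0.44. Single members that reversed were Cox7a1 in WT cells with the additional libraries (-1.905), Cox7a1 (-0.79 to 1.70) and Sdhb (-0.51 to 0.035) in DKO cells, and Cox6a2 (-1.17 to 4.20) and Cox7a1 (-1.63 to 0.86) in the interaction, each without 1 library. Of the other values for single members and medians, 1254 kept direction and side of the threshold, 120 lost a call, 11 gained one and 16 moved. Depth limits Cox4i2, Cox6b2, Cox6c2 and Cox7a1, which rest on few reads.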
